A study of Mus musculus with 4 samples.

Results

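The genes described here are 10 members of Activin, Nodal and TGF-beta signalling: the ligand genes Nodal and Tgfb1, the co-receptor gene Tdgf1, the receptor genes Acvr2a, Acvr2b, Tgfbr2, Acvr1 and Acvr1b, and the transducer genes Smad2 and Smad3. They were taken as a fixed list, chosen with earlier results of these data known. Every array probe set that the platform annotation gives to 1 of these symbols alone was used. This gave 11 of 12422 probe sets, for 10 of 8251 measured genes, because Acvr2a has 2 probe sets. Ligands of this family bind a type II receptor, which phosphorylates a type I receptor, and the type I receptors for activin, Nodal and TGF-beta in turn phosphorylate Smad2 and Smad3. These enter the nucleus with Smad4 and act with partner factors on target genes. In the early mouse embryo Nodal, together with its co-receptor Cripto (the product of Tdgf1), maintains the epiblast and induces mesoderm and endoderm, while TGF-beta 1 acts on blood and endothelial cells.

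The study put RNA from 4 samples on single-colour arrays, all from mouse embryonic stem (ES) cells called Scl+/hCD4, whose human CD4 reports on Scl (the product of Tal1). The titles Hemangioblast and hCD4, each with replicates 1 and 2, set the groups, and all 4 samples derive from that reporter line. Per the labels, ES cells grown with LIF on inactivated STO feeder cells were differentiated with serum for 2.75 days, embryoid body cells positive for Flk-1 (the product of Kdr) and Scl were sorted as hemangioblasts, and blast colonies grown from replated embryoid body cells were picked and pooled. The sample sources name the hCD4 group as cultured ES cells of that line and the other group as hemangioblasts, but the study text names the compared populations hCD4 and Blast, so what each group holds is not settled by the labels. Array titles name the groups here, and every change is Hemangioblast minus hCD4. No label says that replicates came from separate cultures. The p-values set the group difference against the spread between replicate arrays. For each probe set that spread was drawn largely from probe sets of similar intensity, and it may be technical only.

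Markers did not follow the title Hemangioblast. All 6 myeloid markers and 4 of 5 measured erythroid markers rose on the Hemangioblast arrays, whereas 3 of 6 hemangioblast markers (Kdr, Etv2 and Gata2) fell there and 0 rose. Summed scaled intensity of the 6 myeloid markers was 5085 and 5631 in Hemangioblast replicates 1 and 2 and 250 and 224 in hCD4 replicates 1 and 2. For 6 pluripotent cell markers it was 822 and 736 against 4098 and 1812, so that hCD4 replicate 1 stood apart from replicate 2. Of these 6 markers, 2 (Dppa5a and Pou5f1) were called lower on the Hemangioblast arrays and 0 higher, and the groups overlapped for Sox2 and Utf1. In all, 556 of 12422 probe sets (4.48%) passed at a limma adjusted p under 0.05. On the Hemangioblast arrays 362 of these (2.91% of all) were higher and 194 (1.56%) were lower. Without scaling between arrays 272 passed (222 higher, 50 lower), and without hCD4 replicate 1, hCD4 replicate 2 or Hemangioblast replicate 2 the count was 268, 219 or 369.

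Acvr2b, which encodes the type IIB receptor shared by activin and Nodal, was lower on the Hemangioblast arrays, and Tgfb1, which encodes the ligand TGF-beta 1, was higher. These were the 2 of 11 member probe sets that passed (18.2%, beside 4.48% of all probe sets), 1 in each direction. Nodal and Tdgf1 had lower values on both Hemangioblast arrays but missed the threshold, and their 2 hCD4 arrays lay far apart. The probe sets of Acvr2a, Tgfbr2, Acvr1, Acvr1b, Smad2 and Smad3 also missed it. Over the 11 probe sets the median log2 change was -0.22, beside 0.04 over all probe sets. In 6 of the 11 (54.5%) both values of one group lay above both of the other, beside 44.4% of all probe sets, with 4 of these lower and 2 higher on the Hemangioblast arrays. The RNA came from cell populations in bulk, so fewer cells of a type and less RNA per cell cannot be told apart.

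**Figure D1:**
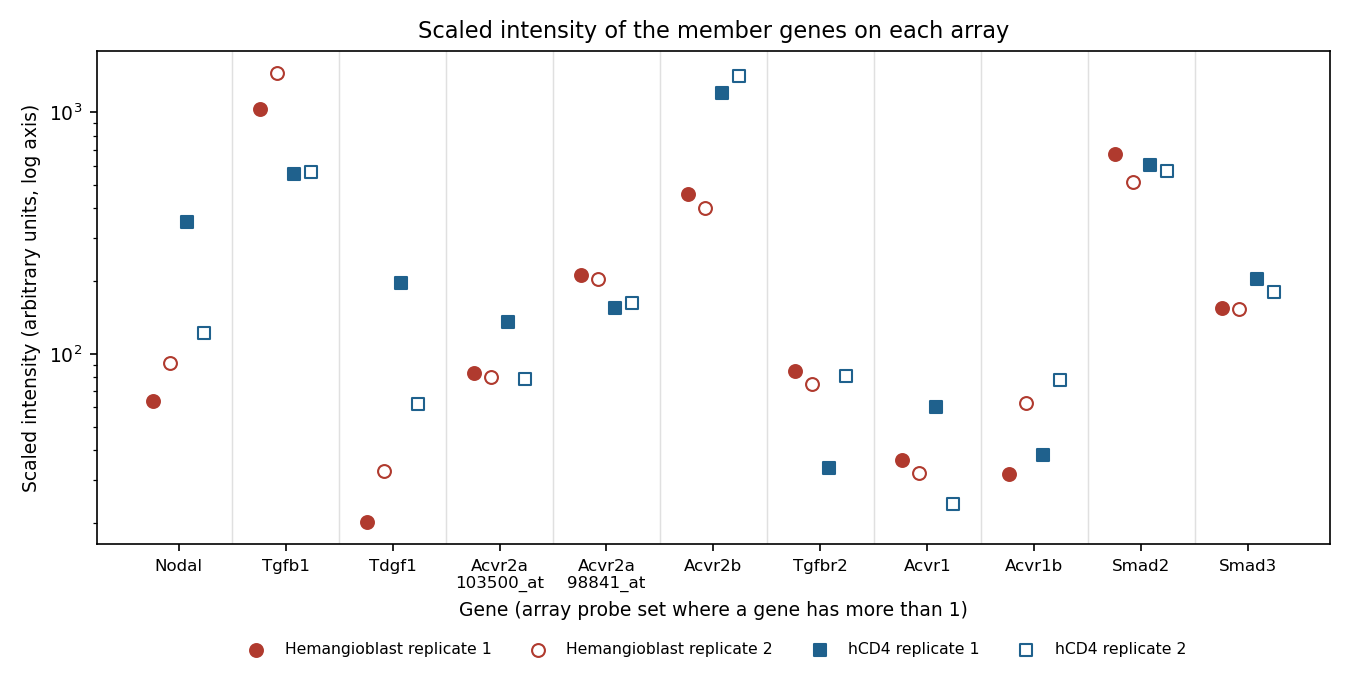
Scaled intensity (log axis, arbitrary units) of each member probe set on each of the 4 arrays, with circles for Hemangioblast, squares for hCD4, filled marks for replicate 1 and open marks for replicate 2. For Acvr2b both squares (1201 and 1415) lie above both circles, for Tgfb1 both circles (1028 and 1449) lie above both squares, and for Nodal and Tdgf1 the filled square stands far above the other marks.

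Among the ligands, Tgfb1 had a scaled intensity of 1028 and 1449 in Hemangioblast replicates 1 and 2 and 554 and 567 in hCD4 replicates 1 and 2. The groups did not overlap, and the hCD4 arrays lay close together while the Hemangioblast arrays lay further apart. The means were 1239 ± 298 (SD, n = 2) and 560 ± 9.4 (SD, n = 2), and the log2 change was 1.10 (SE 0.193, 95% interval 0.66 to 1.54, limma adjusted p = 0.0169), a 2.15-fold rise. A Hemangioblast array exceeded an hCD4 array by 1.81-fold to 2.62-fold over the 4 pairs. The call of Tgfb1 was lost without hCD4 replicate 1 (adjusted p = 0.112), without hCD4 replicate 2 (0.116), without Hemangioblast replicate 2 (0.051) and with a variance model that had no intensity trend (0.127). Tgfb1 rose on the arrays where all 6 myeloid, 4 of 5 measured erythroid and 3 of 4 measured megakaryocyte markers rose. On the same arrays 2 of 6 endothelial and 1 of 6 feeder fibroblast markers rose. The part of these cells in the rise of Tgfb1 was not tested.

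Nodal, the ligand of the early embryo, had a scaled intensity of 63.6 and 91.3 in Hemangioblast replicates 1 and 2 and 350 and 122 in hCD4 replicates 1 and 2. Both hCD4 values exceeded both Hemangioblast values, but hCD4 replicate 1 was 2.87 times replicate 2. The means were 77.5 ± 19.6 (SD, n = 2) and 236 ± 161 (SD, n = 2). The log2 change of -1.28 (SE 0.453, 95% interval -2.32 to -0.24) did not pass (limma adjusted p = 0.192, unadjusted p = 0.0215), and its standard error was well above the 0.27 of the median probe set. Without hCD4 replicate 1 the log2 change was -0.58 and the adjusted p 0.571, and without hCD4 replicate 2 they were -1.99 and 0.0535.

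Tdgf1, the gene of the Nodal co-receptor Cripto, had a scaled intensity of 20.2 and 32.8 in Hemangioblast replicates 1 and 2 and 197 and 62.1 in hCD4 replicates 1 and 2. As for Nodal, the groups did not overlap and hCD4 replicate 1 was the high array, at 3.17 times replicate 2. The log2 change was -1.62 (SE 0.492, 95% interval -2.75 to -0.49) and did not pass (limma adjusted p = 0.127, unadjusted p = 0.0107). Without hCD4 replicate 2 it passed (log2 change -2.34, adjusted p = 0.0474), and without hCD4 replicate 1 its adjusted p was 0.395. The Hemangioblast values lie near the constant of 16 that was added before the log, so the log2 change understates the ratio of the means (130 over 26.5). The suffix of this probe set (93002_r_at) marks one for which the array maker relaxed its probe selection rules, and the reference table lists pseudogenes of Tdgf1, whose transcripts this probe set may not tell apart from the gene.

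Tdgf1, Nodal and the pluripotent cell markers were all higher on hCD4 replicate 1 than on replicate 2. On the log2 scale hCD4 replicate 1 exceeded replicate 2 by 1.45 for Tdgf1 and 1.41 for Nodal, and 0.644% and 0.716% of all probe sets had a difference at least as high. All 6 pluripotent cell markers were also higher on replicate 1, by a median of 1.14, with Nanog at 444 and 141 and Pou5f1, which encodes Oct4, at 1526 and 585. In contrast, 1 of 6 hemangioblast markers (Etv2, by 0.07) was higher on replicate 1, and their median difference was -0.26. Some listed pathway genes that are not members differed in the same direction too, such as Timp3 (1.51) and Fst (1.09). Over all probe sets the median size of the difference was 0.25, and 47.1% were higher on replicate 1. The part of pluripotent cells in the Nodal and Tdgf1 values was not tested.

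**Figure D2:**
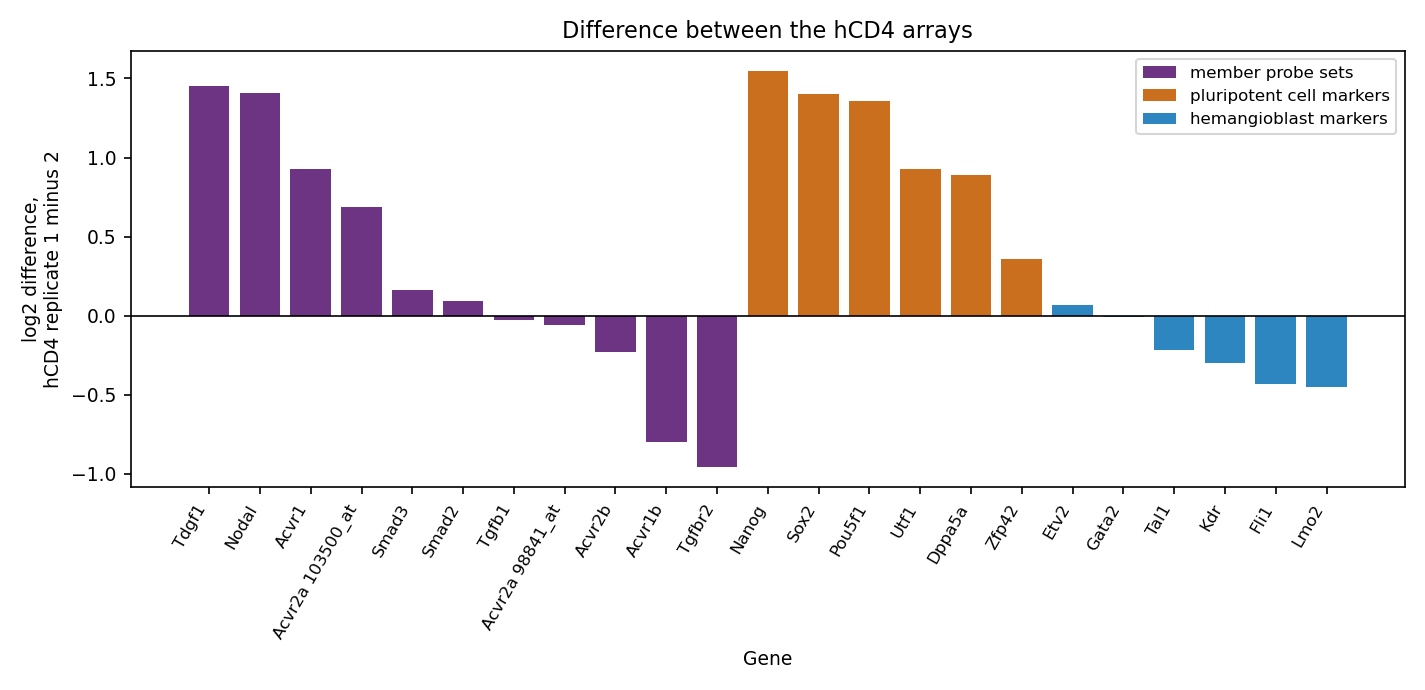
Log2 difference between the hCD4 arrays (replicate 1 minus replicate 2) for the 11 member probe sets (purple), 6 pluripotent cell markers (orange) and 6 hemangioblast markers (blue), 1 bar each. Tdgf1 (1.45) and Nodal (1.41) are the highest bars among the members, and all 6 orange bars lie above 0.

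Nodal (RefSeq promoter at chr10:61417722-61418021, plus strand) and Tdgf1 (chr9:110946109-110946408, minus strand) are shown from 250 bases before to 50 bases after the annotated start, as given by RefSeq on GRCm38.p6, because these genes shared the high hCD4 array. Capitals mark the GC box GGGCGG on either strand. It occurs in 35.7% of 32851 promoters of the same length. The Tdgf1 stretch holds 1 and the Nodal stretch 0.
Nodal: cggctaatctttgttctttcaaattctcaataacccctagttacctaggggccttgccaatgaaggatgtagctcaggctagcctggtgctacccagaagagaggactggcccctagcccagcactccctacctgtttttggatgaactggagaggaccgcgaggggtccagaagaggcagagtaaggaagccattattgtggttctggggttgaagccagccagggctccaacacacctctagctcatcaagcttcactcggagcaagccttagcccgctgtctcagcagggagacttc
Tdgf1: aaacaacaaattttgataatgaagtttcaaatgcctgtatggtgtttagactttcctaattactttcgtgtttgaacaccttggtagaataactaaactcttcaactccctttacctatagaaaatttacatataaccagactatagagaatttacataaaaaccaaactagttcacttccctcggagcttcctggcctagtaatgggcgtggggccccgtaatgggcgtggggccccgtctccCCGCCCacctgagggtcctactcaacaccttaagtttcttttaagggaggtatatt
The GC content was 54% for Nodal and 41.7% for Tdgf1, beside a median of 52.7% over all promoters. No match was found in these windows, on either strand, to the Smad palindrome GTCTAGAC (0.213% of all promoters), the Smad box CAGACA (21%) or the FoxH1 motif AATNCACA (3.6%), where N is any base.

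Among the type II receptors, Acvr2b had a scaled intensity of 457 and 402 in Hemangioblast replicates 1 and 2 and 1201 and 1415 in hCD4 replicates 1 and 2. Both hCD4 arrays were high and both Hemangioblast arrays low, with a wide gap between the groups. The means were 430 ± 39.0 (SD, n = 2) and 1308 ± 151 (SD, n = 2). The log2 change was -1.57 (SE 0.169, 95% interval -1.96 to -1.18, limma adjusted p = 0.00154), a 2.97-fold fall, and the ratio over the 4 pairs of arrays ran from 2.63 to 3.52. Acvr2b was the 1 member probe set that differed at least 2-fold on the log2 scale with the added constant in all 4 pairs, which 2.89% of all probe sets did. Its call held under each of the 12 alternatives, with an adjusted p of 0.000124 to 0.0354 and a log2 change of -1.69 to -1.45. Acvr2b fell on the arrays where Kdr (648 and 570 against 1625 and 2003) also fell, and the part of the cell makeup in its fall was not tested.

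Acvr2a, which encodes the related type IIA receptor, was read by 2 probe sets that pointed opposite ways. The brighter one (98841_at) was at 212 and 203 in Hemangioblast replicates 1 and 2 and 155 and 163 in hCD4 replicates 1 and 2, without overlap, and its log2 change of 0.35 (SE 0.239, limma adjusted p = 0.558) did not pass. The other (103500_at) was at 82.9 and 80.5 against 136 and 78.3, with overlapping groups and a log2 change of -0.29 (SE 0.34, limma adjusted p = 0.779). The difference between Acvr2a and Acvr2b was not tested. Tgfbr2, the type II receptor for TGF-beta, was at 85.2 and 75.3 against 33.7 and 80.6. Replicate 2 of hCD4 lay between the Hemangioblast values and replicate 1 below them, and the log2 change of 0.47 (95% interval -0.44 to 1.38, limma adjusted p = 0.664) did not pass.

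Acvr2b (chr9:119401928-119402227, plus strand) and Tgfb1 (chr7:25686752-25687051, plus strand), the members that passed, are shown over the same RefSeq window on GRCm38.p6, with the GC box GGGCGG on either strand in capitals. There are 3 GC boxes in the Acvr2b stretch and 6 in the Tgfb1 stretch.
Acvr2b: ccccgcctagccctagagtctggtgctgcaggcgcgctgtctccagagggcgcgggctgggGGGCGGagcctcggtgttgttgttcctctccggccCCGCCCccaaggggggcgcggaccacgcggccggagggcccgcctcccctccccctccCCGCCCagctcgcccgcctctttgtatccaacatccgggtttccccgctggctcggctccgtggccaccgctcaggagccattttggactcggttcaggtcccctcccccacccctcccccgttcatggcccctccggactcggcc
Tgfb1: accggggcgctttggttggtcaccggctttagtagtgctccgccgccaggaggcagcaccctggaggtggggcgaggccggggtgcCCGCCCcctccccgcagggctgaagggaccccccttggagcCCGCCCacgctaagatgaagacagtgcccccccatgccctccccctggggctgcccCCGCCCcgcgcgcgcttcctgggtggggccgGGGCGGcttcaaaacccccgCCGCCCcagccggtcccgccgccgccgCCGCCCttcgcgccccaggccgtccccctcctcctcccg
Both are rich in G and C (73.3% and 77%, median of all promoters 52.7%) and hold 27 and 30 CpG dinucleotides, beside a median of 7. Neither holds GTCTAGAC, CAGACA or AATNCACA on either strand. RefSeq promoters were matched for 9 of the 10 member genes, all except Smad2. The member promoters of Acvr1 (83.7%), Acvr2a (80.3%) and Acvr1b (79.7%), whose probe sets did not pass, had a higher GC content than those of Acvr2b and Tgfb1.

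The type I receptor genes were read by dim probe sets. Acvr1b, which encodes ALK4, the type I receptor for activin and Nodal, was at 31.9 and 62.7 in Hemangioblast replicates 1 and 2 and 38 and 78.2 in hCD4 replicates 1 and 2. The groups overlapped, and the replicates of each group lay further apart than the group means (log2 change -0.22, 95% interval -1.18 to 0.75, limma adjusted p = 0.884). Acvr1, which encodes ALK2 and mainly passes on BMP signals, was at 36.2 and 32.1 against 60.5 and 24, again with overlap (log2 change -0.14, 95% interval -1.08 to 0.79, limma adjusted p = 0.932). In 5 of the 11 member probe sets the mean over the 4 arrays was under 100 scaled units, as in 32.7% of all probe sets. The wide 95% intervals of both receptor genes leave sizeable changes in either direction possible.

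The transducer genes had narrower intervals. Smad2 was at 673 and 515 in Hemangioblast replicates 1 and 2 and 607 and 569 in hCD4 replicates 1 and 2, so that the Hemangioblast values enclosed the hCD4 values. Its log2 change was 0.00 (SE 0.187, 95% interval -0.43 to 0.43, limma adjusted p = 0.999). Smad3 was at 155 and 153 against 204 and 181. The groups of Smad3 did not overlap, but the log2 change of -0.29 (SE 0.246, 95% interval -0.86 to 0.27) did not pass (limma adjusted p = 0.671). Smad4, their common partner and no member, was at 1083 and 1084 against 1106 and 1109 (log2 change -0.03, 95% interval -0.36 to 0.30).

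**Figure D3:**
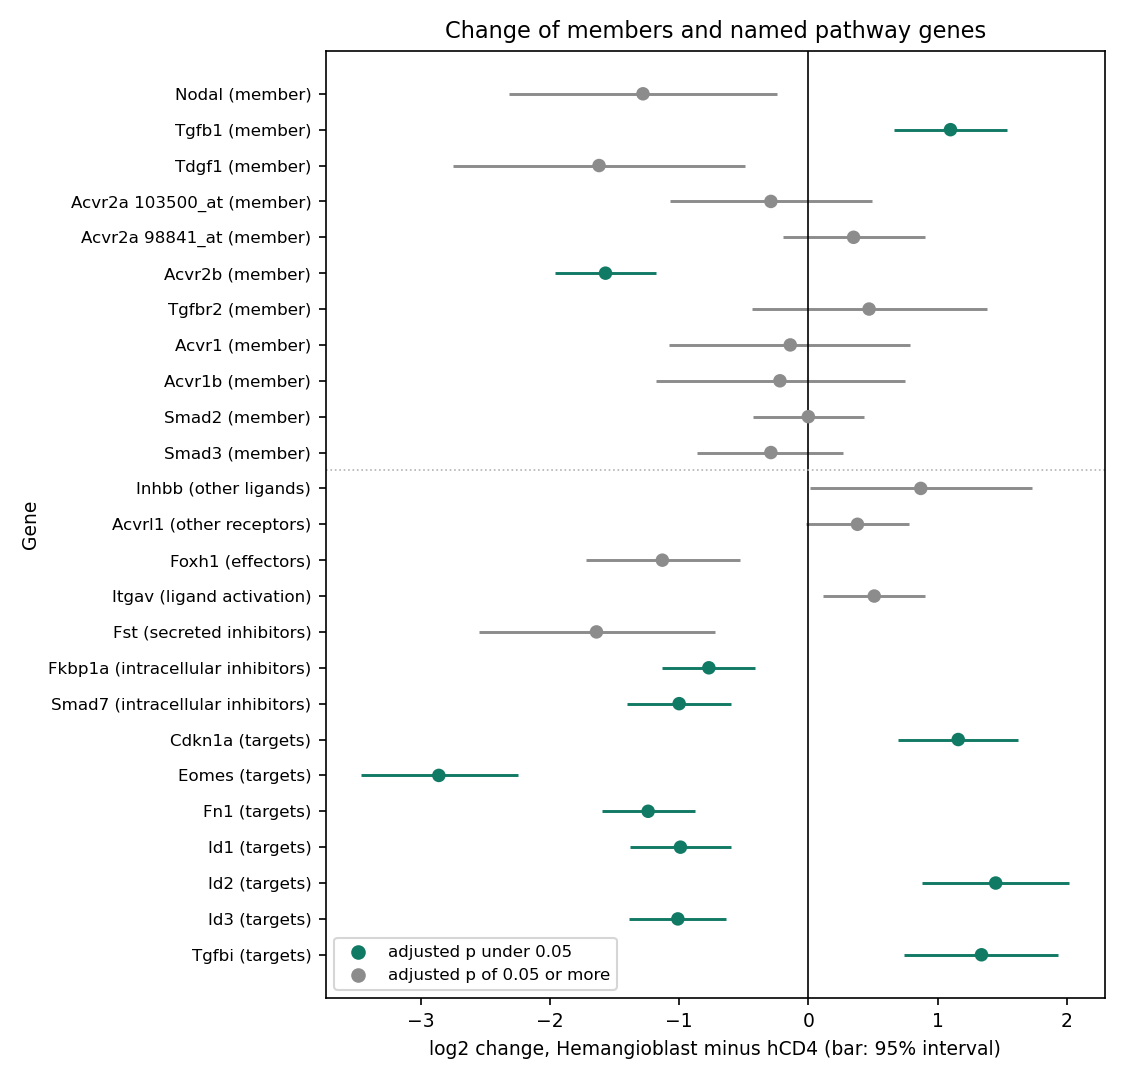
Log2 change (Hemangioblast minus hCD4, points) with 95% intervals (bars) of the 11 member probe sets above the dotted line and of 14 named genes of the other pathway lists below it; green marks an adjusted p under 0.05. Acvr2b (-1.57) and Tgfb1 (1.10) are the green members, and the intervals of Nodal and Tdgf1 are among the widest.

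Beyond the members, 56 of 72 listed genes of the pathway were measured, and 9 of them passed (16.1%, beside 5.38% of 8251 genes, each by its brightest probe set). Of these, 3 rose (3.43% of all genes did) and 6 fell (1.95% of all genes did). The median log2 change of the 56 genes was -0.05, beside 0.02 over all genes. The lists were chosen with earlier results of these data known, so these shares do not test the pathway. All 9 called genes are inhibitors inside the cell or targets. In the 9 other ligand genes, the 5 other receptor and co-receptor genes, the 4 effector genes, the 9 genes of ligand processing and activation and the 5 secreted inhibitor genes, 0 passed. Without scaling between arrays 2 of the 56 passed (Eomes and Tgfbi), without an intensity trend 1 did (Eomes), and without hCD4 replicate 1 or 2 the count was 5 or 3.

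In the list of inhibitors inside the cell, 2 of 7 measured genes fell and 0 rose (28.6% called, beside 5.38% of all genes). The median log2 change of the 7 was -0.45, beside 0.02 over all genes. With earlier results known when the list was chosen, its share does not test the pathway. Smad7, which is induced by the pathway and blocks type I receptors, was at 486 and 395 in Hemangioblast replicates 1 and 2 and 906 and 879 in hCD4 replicates 1 and 2. The groups were well apart, and Smad7 fell 2-fold (SE of the log2 change 0.174, limma adjusted p = 0.0168). Fkbp1a encodes FKBP12, which binds type I receptors and keeps them inactive without ligand but has other partners too. It was at 2347 and 1894 against 3764 and 3455 (log2 change -0.77, limma adjusted p = 0.0316). Both calls were lost without either hCD4 array (adjusted p up to 0.123 for Smad7 and 0.217 for Fkbp1a), without scaling (0.0986 and 0.229) and without an intensity trend (0.116 and 0.205), and that of Fkbp1a also without Hemangioblast replicate 2 (0.0741) and with median scaling (0.085).

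Of 17 measured targets, 3 rose and 4 fell (41.2% called, beside 5.38% of all genes). The median log2 change of the 17 was -0.47, beside 0.02 over all genes. The target list too was chosen with earlier results known, so its share does not test the pathway. Eomes, a T-box factor that Nodal signals induce in the primitive streak, was at 90.9 and 154 in Hemangioblast replicates 1 and 2 and 1084 and 853 in hCD4 replicates 1 and 2 (log2 change -2.86, SE 0.264, limma adjusted p = 0.000703). Its dimmer probe set fell as well (log2 change -3.51), with 838 and 441 in hCD4 replicates 1 and 2. The call of Eomes held under all 12 alternatives. The fibronectin gene Fn1 was at 2538 and 2002 against 5265 and 5411 (log2 change -1.24, limma adjusted p = 0.00354). Id1 and Id3, inhibitors of basic helix-loop-helix factors that BMP signals induce, fell by 0.99 and 1.01 on the log2 scale (limma adjusted p = 0.0164 and 0.0124). Id1, Id2 and Id3 were counted as targets here, and the part of BMP signals in their changes was not tested. Eomes, Fn1, Id1 and Id3 were thus high on both hCD4 arrays.

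The targets that rose were Tgfbi, Cdkn1a and Id2. Tgfbi, which encodes a matrix protein first found as induced by TGF-beta, was at 361 and 390 in Hemangioblast replicates 1 and 2 and 111 and 172 in hCD4 replicates 1 and 2 (log2 change 1.34, SE 0.260, limma adjusted p = 0.0263), and its dimmer probe set did not pass (log2 change 0.14). Cdkn1a, which encodes the cell cycle inhibitor p21, was at 866 and 696 against 386 and 299 (log2 change 1.16, limma adjusted p = 0.0171), and its dimmer probe set did not pass (log2 change 0.49). Id2, a further Id family gene that is also expressed in myeloid and lymphoid cells, was at 1794 and 1402 against 740 and 440 (log2 change 1.45, limma adjusted p = 0.0156). These 3 rose together with Tgfb1 on the arrays where myeloid and most erythroid and megakaryocyte markers rose. There 2 of 6 endothelial and 1 of 6 feeder fibroblast markers rose as well, and the part of these cells was not tested. For Tgfbi the call was lost without hCD4 replicate 1, Hemangioblast replicate 1 or Hemangioblast replicate 2 (adjusted p of 0.128, 0.0754 and 0.122). For Fn1 and Id2 it was lost without hCD4 replicate 2 (0.0623 and 0.0909), for Id1 and Id3 on leaving out one or the other hCD4 array (highest adjusted p 0.131 and 0.122), and for Cdkn1a without hCD4 replicate 2 (0.133) or Hemangioblast replicate 1 (0.0618). Without an intensity trend all 6 lost it (0.0756 to 0.129), and without scaling all except Tgfbi did.

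In the remaining lists the gene with the smallest adjusted p is given. Foxh1, the forkhead partner of Smad2 in Nodal responses, was at 147 and 226 in Hemangioblast replicates 1 and 2 and 372 and 467 in hCD4 replicates 1 and 2. The groups were apart, and the log2 change of -1.13 (SE 0.259) narrowly missed the threshold (limma adjusted p = 0.0514). Fst encodes follistatin, which binds and neutralizes activin. It was at 48.7 and 66.6 against 316 and 140 (log2 change -1.64, SE 0.398, limma adjusted p = 0.0613), with hCD4 replicate 1 again the high array. Inhbb, the gene of the activin beta B chain, was at 18.3 and 26.2 against 0.936 and 9.52 (limma adjusted p = 0.299), dim values, of which 0.936 is a deposited value of 1 as held by 1.16% of probe sets on that array. The TGF-beta family type I receptor gene Acvrl1 had a log2 change of 0.38 (limma adjusted p = 0.342). The integrin gene Itgav, whose product helps to release latent TGF-beta, had a log2 change of 0.51 (limma adjusted p = 0.171). Dimmer probe sets of these genes did not pass and pointed both ways, at -0.12 and 0.22 for Acvrl1 and -0.57 and 0.82 for Itgav. Foxh1 passed under 6 of 12 alternatives and Fst under 4.

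The 3 members with the smallest adjusted p were set beside the genes with the most similar values, measured as the Euclidean distance between log2 values over the 4 arrays after each gene was centred on its mean. Nearest to Acvr2b was Kdr, the Flk-1 gene by which hemangioblasts were sorted, at a distance of 0.0516 (log2 change -1.55). Next came Smad1, a transducer of BMP signals (0.203), and the hyaluronan synthase gene Has2 (0.209). Nearest to Tgfb1 were Il1r2, which encodes a decoy receptor for interleukin-1 (0.0844), Med12l (0.0922) and Twf2, which encodes an actin-binding protein (0.0938). Of these, Il1r2 and Med12l did not pass (adjusted p = 0.0559 and 0.0837 by limma). Nearest to Tdgf1 were Fst (0.261), Nodal (0.335) and Slc7a7, an amino acid transporter gene (0.375), which had 687 and 256 on the hCD4 arrays. With 4 arrays a short distance only says that the same arrays were high and low.

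**Figure D4:**
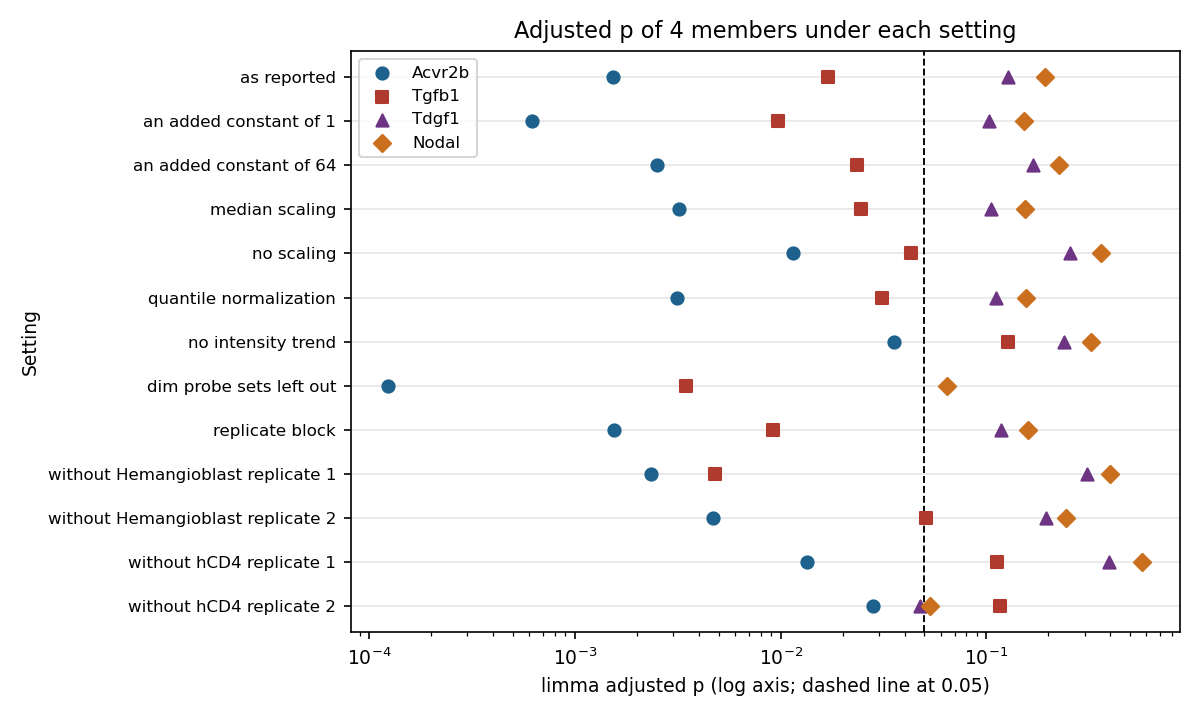
Limma adjusted p (log axis, dashed line at 0.05) of Acvr2b, Tgfb1, Tdgf1 and Nodal as reported and under 12 alternative settings. Acvr2b lies left of the line in all rows (0.000124 to 0.0354), Tgfb1 crosses it in 4 rows, and Tdgf1 falls left of it in 1 row (0.0474, without hCD4 replicate 2); Tdgf1 has no mark where dim probe sets were left out.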

How the data were processed

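For each of 4 arrays the authors deposited probe set intensities on a linear scale (biotin-labelled RNA, 20 ug, per the labels). How they were computed is not given in the sources used here. Trimmed means ran from 334 to 389, so levels differed between arrays. After 66 controls were left out, a factor per array brought the trimmed means to their average (2% of the values cut at each end; factors 0.936 to 1.09), and 16 was added before taking log2. The test was limma (version 3.58.1, R 4.3.3) on 2 arrays a group (lmFit, eBayes with an intensity trend, two-sided, Benjamini-Hochberg over 12422 probe sets). The number of arrays limits the precision. An exact permutation test of 2 against 2 cannot go below p = 0.333 and was not used.

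Genes were named from the platform's annotation, which gives 1 symbol to 10833 probe sets, several to 396 and none to 1193. A reference table held 10817 of the first and changed 0 symbols. A gene outside the members is represented by its brightest probe set. All probe sets of the members are reported, together with every called gene of the 7 pathway lists (or the one with the smallest adjusted p where none passed) and the 3 genes most like each of 3 members. Members, lists and tests were chosen with earlier results of these data known. Tried as alternatives were added constants of 1 and 64, median, no and quantile scaling, no intensity trend, leaving out dim probe sets (mean under 100), a replicate block and leaving out each array. Promoter sequences are RefSeq's (GRCm38.p6), and plots used Python 3.11.15 with matplotlib 3.10.9. Of the 8 marker lists, the myeloid, erythroid, hemangioblast and pluripotent ones are described above. In the others, 3 of 4 measured megakaryocyte, 2 of 6 endothelial and 1 of 6 feeder fibroblast markers were called higher. Of 5 measured visceral endoderm markers 0 were called, and 3 of these had a mean under 100.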

Additional observations from a re-analysis of the deposited data

How the results depend on the processing

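Of 294 values of the 11 member probe sets and 14 named genes under 12 alternatives, 239 kept their direction and their side of the threshold, 36 called values lost the call, 11 others gained it and 8 changed sign, none of these 8 being called. The count of all probe sets past the threshold (556) was 272 without scaling, 220 without an intensity trend, 853 of 8366 when dim probe sets were left out and 219 to 517 with 1 array left out. The count of member probe sets (2) was 1 without an intensity trend. With 1 array left out, both the number of called members and the genes among them changed. The log2 change then ran from -1.69 to -1.45 for Acvr2b, from 0.86 to 1.35 for Tgfb1 and from -2.34 to -0.89 for Tdgf1. The count of other pathway genes (9) was 2 without scaling, 1 without an intensity trend, 14 with dim probe sets left out, and 3 to 8 with 1 array left out. Smad2 had a log2 change of -0.0807 with median scaling, and with 1 array left out it ran from -0.185 to 0.191, that of Acvr1 from -0.611 to 0.324, that of Acvr1b from -0.617 to 0.185, that of the dimmer Acvr2a probe set from -0.635 to 0.0508 and that of Tgfbr2 from -0.00747 to 0.952. The cause of these changes was not tested. Some settings also held fewer arrays or fewer probe sets. Arrays share only replicate numbers: deviations of same-numbered arrays from their group means correlated at -0.00781, and with the replicate block 710 probe sets, 2 member probe sets and 13 other pathway genes passed.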
